A study of Mus musculus with 8 samples.

Results

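The genes described here are 31 regulators, contractile proteins and membrane proteins of skeletal muscle, listed by name, with the troponins left out. All 31 have a probe set annotated to them alone on the Affymetrix Mouse430 array, among 18194 genes that do, and each gene was read from the brightest of its probe sets. Intact hearts were taken at embryonic day E18.5 from 5 wild-type and 3 2lox/2lox embryos, and the RNA of each was read on 1 array. The 2lox allele is Kdm1a (also Aof2, the gene of the histone demethylase Lsd1) with its loxP sites in place. It carries point mutations in the tower domain, through which Lsd1 binds its partners. The labels call these embryos both hypomorphic and Lsd1 knock-out, but no Cre was used and a mutated Lsd1 protein is still made, in every cell of the embryo. No treatment was given, and the hearts came from littermates, but which embryos shared a litter and their strain are not given in the sources used here. Sex is not labelled either. Xist, a female transcript, read 10.59 in wild-type heart 2 and 10.88 in 2lox/2lox heart 3, and 4.61 to 4.94 in the others. Each array is of a separate heart, so the p-values measure the spread between embryos. Kdm1a lay between 10.26 and 10.36 on the log2 scale in the wild-type hearts and between 9.44 and 9.55 in the 2lox/2lox hearts, a difference of -0.81 (SE 0.06, adjusted p = 5.15e-04).

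Skeletal and cardiac muscle are both striated and share the plan of the sarcomere, the repeating unit in which myosin filaments pull on actin filaments. They build it largely from different members of the same gene families. In skeletal muscle, Pax7 acts in precursor cells. The basic helix-loop-helix factors Myf5, Myod1, Myog and Myf6 bind E-boxes in the control regions of muscle genes. Working cardiomyocytes use none of these 5 regulators, yet the fetal heart is known to make some skeletal forms, of which skeletal alpha-actin is the best known. The labelled tissue is embryonic heart, and all 13 cardiomyocyte markers, with Tnnt2, Nppa and Actc1 among them, were above the background limit defined below. In whole hearts, fewer cells of a type and less RNA per cell cannot be told apart.

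The control regions of 5 members are shown because these 5 genes stood highest above the other wild-type hearts in a single wild-type heart, as described below. They are Acta1 (skeletal alpha-actin), Myh3 (embryonic myosin heavy chain), Myl1 (fast skeletal essential light chain), Mylpf (fast skeletal regulatory light chain) and Myog (myogenin). Each sequence holds the 250 bases before the gene's RefSeq start, read 5′ to 3′ along the gene, and the capitals mark E-boxes (CANNTG). The positions are of build GRCm38.p6 and are chr8:123894776-123895025 on the minus strand for Acta1, chr11:67078050-67078299 on the plus strand for Myh3, chr1:66945057-66945306 on the minus strand for Myl1, chr7:127211358-127211607 on the plus strand for Mylpf and chr1:134289754-134290003 on the plus strand for Myog.
Acta1: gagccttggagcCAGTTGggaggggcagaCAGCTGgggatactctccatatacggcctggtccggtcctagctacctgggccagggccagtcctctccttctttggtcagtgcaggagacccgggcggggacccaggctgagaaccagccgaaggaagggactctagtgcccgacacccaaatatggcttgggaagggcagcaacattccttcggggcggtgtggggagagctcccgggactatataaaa
Myh3: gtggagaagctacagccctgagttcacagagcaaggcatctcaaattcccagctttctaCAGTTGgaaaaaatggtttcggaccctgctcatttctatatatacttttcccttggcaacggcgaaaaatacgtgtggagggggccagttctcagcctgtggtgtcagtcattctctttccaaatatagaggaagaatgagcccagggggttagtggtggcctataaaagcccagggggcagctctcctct
Myl1: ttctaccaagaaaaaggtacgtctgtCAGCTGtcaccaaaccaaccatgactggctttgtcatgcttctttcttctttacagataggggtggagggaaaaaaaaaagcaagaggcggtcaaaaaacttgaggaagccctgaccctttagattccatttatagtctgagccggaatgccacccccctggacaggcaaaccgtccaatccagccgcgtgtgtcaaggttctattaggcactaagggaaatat
Mylpf: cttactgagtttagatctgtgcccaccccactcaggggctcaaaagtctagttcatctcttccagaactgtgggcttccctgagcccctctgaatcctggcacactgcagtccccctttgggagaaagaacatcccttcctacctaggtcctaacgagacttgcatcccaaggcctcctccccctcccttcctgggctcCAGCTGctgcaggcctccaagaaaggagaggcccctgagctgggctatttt
Myog: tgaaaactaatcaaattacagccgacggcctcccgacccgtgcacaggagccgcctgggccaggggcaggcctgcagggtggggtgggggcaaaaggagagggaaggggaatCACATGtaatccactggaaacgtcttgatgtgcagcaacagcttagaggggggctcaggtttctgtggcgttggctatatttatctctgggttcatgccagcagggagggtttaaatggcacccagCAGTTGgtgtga
The Acta1 sequence held E-boxes that begin 238 and 221 bases before the start and a CArG box, the site of serum response factor, that begins 73 bases before it. In Myog the E-boxes began 138 and 12 bases before the start. Myh3 had 1 at 191 bases, Myl1 had 1 at 224 and Mylpf had 1 at 51. An E-box is a short motif. Its pattern CANNTG, with N for any base, reads the same on both strands, though a given site need not. Of 32851 mouse promoter windows of 300 bases (250 before and 50 after the start), 72.3% held at least 1 E-box. Of the 31 members, 22 had a window in the table used, 23 windows in all, because Pvalb had 2. Both strands were searched, for CArG boxes as CCWWWWWWGG and for MEF2 sites as CTAWWWWTAR (W is A or T, R is A or G). Sites spelled otherwise were not counted. E-boxes were found in 15 of the 23 windows and CArG boxes in 2 (Acta1 and Myh4, against 1.63% of all windows). MEF2 sites were found in 4 (Myh1, Myh4, Myh8 and 1 window of Pvalb, against 1.86%). No motif overlapped another kind in the sequences shown. All of these sites are matches of letters, not measured binding. Actn3, Ampd1, Cacng1, Chrnd, Myf6, Myod1, Myot, Myoz1 and Neb had no window in the table. The windows of the skeletal myosin heavy chain genes lie in one cluster on the plus strand of chromosome 11, in the order Myh3, Myh2, Myh1, Myh4 and Myh8.

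To separate genes at background from genes expressed in the fetal heart, each member's mean log2 level over the 8 hearts was set against a limit of 4.85. This is the 95th percentile of the same mean over 74 olfactory, vomeronasal and bitter taste receptor genes, which the heart is not known to use. Of the 31 members, 15 lay above the limit and 16 did not. The lowest member above it was Mustn1 (mean 4.87) and the highest one below it was Cacng1 (4.69), so the division there is narrow. The receptor genes had a median of 4.01, and the brightest of them, Vmn1r44, stood at 6.25, which left 5 members above it: Acta1, Casq1, Myl1, Myoz1 and Smpx. A probe set's brightness depends on its probes, so the order of genes in the plot of levels is not an order of transcript abundance.

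**Figure D1:**
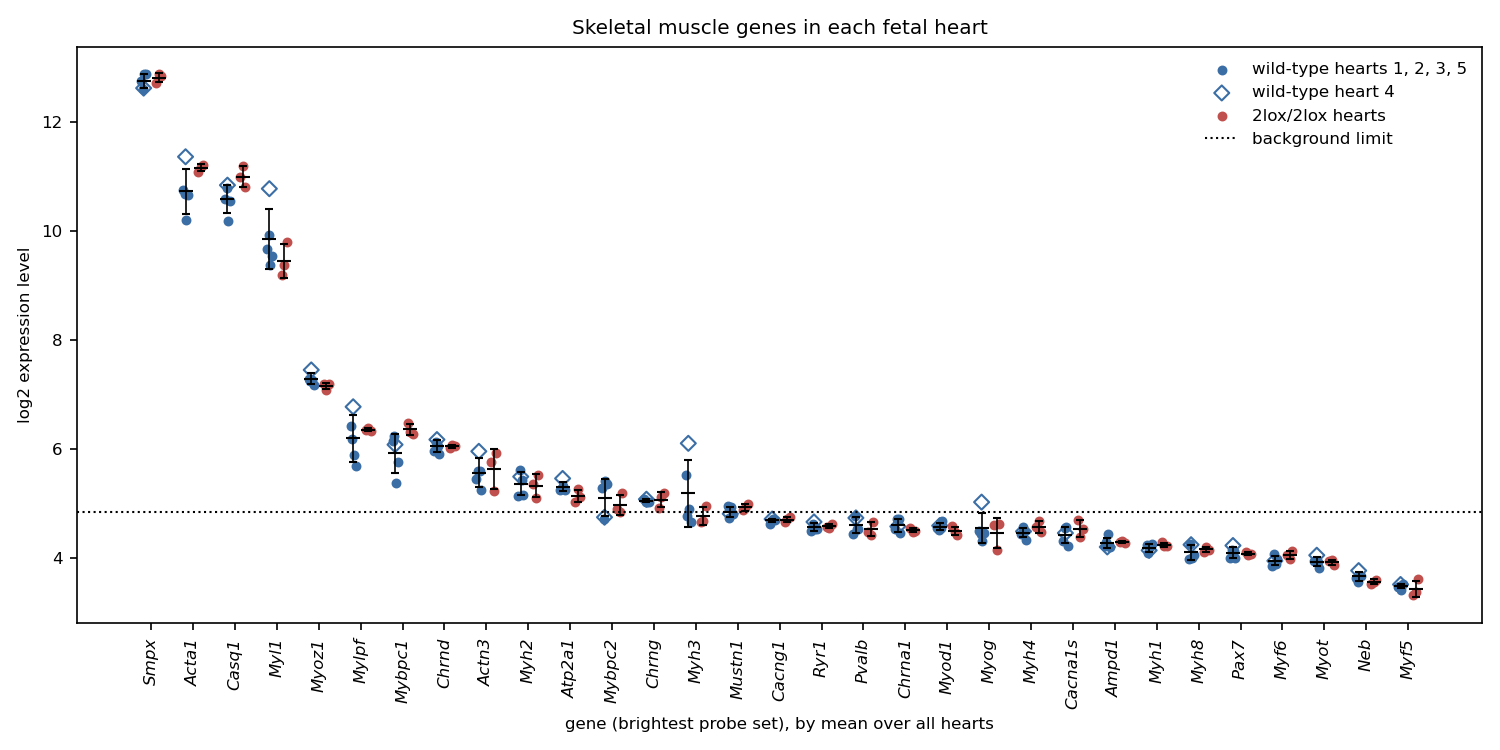
log2 expression level (vertical axis) of the 31 skeletal muscle genes (horizontal axis, in order of the mean over all hearts) in 5 wild-type hearts (blue, with wild-type heart 4 as open diamonds) and 3 2lox/2lox hearts (red); bars are the mean ± SD of each genotype and the dotted line is the background limit of 4.85. The 4 brightest probe sets lie above 9 in every heart, 16 genes have a mean under the limit, and wild-type heart 4 stands clear of the other wild-type hearts for Acta1, Myl1, Mylpf, Myh3 and Myog.

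Whether the 2lox/2lox hearts differed from the wild-type hearts was tested for all 45101 probe sets at once. None of the 31 members passed an adjusted p of 0.05 in limma, where 0.0798% of all probe sets did (0.0621% up and 0.0177% down), and the smallest adjusted p of a member was 0.342, for Casq1. At an unadjusted p under 0.05 there were 3 members (9.68%), with Casq1 and Mybpc1 higher and Atp2a1 lower in the 2lox/2lox hearts, against 10.9% of all probe sets (5.97% higher and 4.94% lower). The 2lox/2lox values lay entirely outside the wild-type range for 1 member (3.23%), Mybpc1, against 6.11% of all probe sets (3.41% above and 2.71% below). Both shares of the members are thus close to or under those of the whole array. The estimated difference was positive for 16 members and negative for 15, with a median of 0.01 on the log2 scale. These tests do not show that the levels were equal, and the intervals below give the changes that remain possible.

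The arrays were compared with each other first. Wild-type heart 4 had the highest level of the 8 hearts for 13 of the 31 members (41.9%), where it was highest for 13.9% of all genes. It was lowest for no member. Of the 13, 8 were among the 15 members above the limit and 5 among the 16 members under it. The next heart, 2lox/2lox heart 3, was highest for 5 members (16.1%, against 9.74% of all genes). Wild-type heart 4 was picked out of the 8 by its values for the members, so its share of all genes is not a like comparison. For each skeletal muscle gene, cardiac counterpart and troponin below whose difference changed by over 0.05 when this heart was left out, the value without it is therefore given too. Of the other members, Chrnd, Myot and Pax7 changed sign without it, to 0.03, 0.01 and 0.01.

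The pair of light chains and the pair of binding proteins of the thick filament that were measured were all above the limit, and their differences had both signs. Myl1, the fast skeletal essential light chain, read 9.66, 9.92, 9.38, 10.78 and 9.54 in wild-type hearts 1 to 5 and 9.19, 9.38 and 9.80 in 2lox/2lox hearts 1 to 3. Wild-type heart 4 stood apart at the top, and the other 7 hearts overlapped. The difference was -0.40 (SE 0.28, 95% interval -1.02 to 0.21, adjusted p = 0.665), and without wild-type heart 4 it was -0.17.

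Mylpf, the regulatory light chain that goes with it in fast fibres, read 6.42, 6.18, 5.89, 6.77 and 5.69 in the wild-type hearts and 6.34, 6.38 and 6.32 in the 2lox/2lox hearts. The 3 2lox/2lox values sat close together inside a wide wild-type range. Their mean was 0.16 higher (SE 0.20, 95% interval -0.29 to 0.61, adjusted p = 0.845), or 0.30 higher without wild-type heart 4.

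Mybpc1, the slow skeletal form of myosin binding protein C, read 6.14, 6.24, 5.37, 6.08 and 5.75 in the wild-type hearts and 6.47, 6.31 and 6.28 in the 2lox/2lox hearts. Here the groups did not overlap, by a margin that is small beside the spread of the wild-type hearts. The mean was 5.92 ± 0.35 (SD, n = 5) in the wild-type and 6.35 ± 0.10 (SD, n = 3) in the 2lox/2lox hearts, a 1.35-fold difference. On the log2 scale this was 0.44 (SE 0.17, 95% interval 0.05 to 0.82), and the adjusted p of 0.394 did not pass. Without wild-type heart 4 it was 0.48. The other probe sets of Mybpc1 gave differences of 0.02 and -0.07, so the separation was seen with 1 of its 3 probe sets.

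Mybpc2, the fast form of the same protein, read 5.28, 4.72, 5.41, 4.74 and 5.36 in the wild-type hearts and 4.89, 4.84 and 5.18 in the 2lox/2lox hearts. The wild-type hearts fell into a higher 3 and a lower 2, hearts 2 and 4, with the 2lox/2lox hearts between them. The difference was -0.13 (SE 0.17, adjusted p = 0.863), or -0.22 without wild-type heart 4.

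Of the 5 myosin heavy chains, the motor proteins of the thick filament, 2 were above the limit. Myh3, the embryonic form that precedes the adult ones in developing limb and trunk muscle, read 5.51, 4.76, 4.89, 6.10 and 4.65 in the wild-type hearts and 4.66, 4.68 and 4.95 in the 2lox/2lox hearts. Wild-type hearts 4 and 1 were high, and the other 6 lay between 4.65 and 4.95, near the limit. The difference was -0.42 (SE 0.29, 95% interval -1.06 to 0.23, adjusted p = 0.670) and was -0.19 without wild-type heart 4.

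Myh2, the heavy chain of fast oxidative fibres, read 5.13, 5.60, 5.43, 5.49 and 5.15 in the wild-type hearts and 5.35, 5.10 and 5.52 in the 2lox/2lox hearts. The groups covered the same range, and the difference was -0.04 (SE 0.13, adjusted p = 0.956). Myh4 and Myh1, the heavy chains of the other fast fibres, and Myh8, the perinatal form, had means of 4.50, 4.20 and 4.12, all under the limit. Their differences were 0.11, 0.06 and 0.05. The heavy chains are alike in sequence, and whether their probes cross-match was not checked. Nor was it checked for Acta1 and Casq1, described below, whose cardiac relatives Actc1 and Casq2 had brighter means of 14.42 and 11.19.

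In the thin filament and the Z-disc, Acta1 had the largest difference. Skeletal alpha-actin, which Acta1 encodes, is the actin of adult skeletal muscle and is also made by the fetal heart. It read 10.75, 10.67, 10.20, 11.36 and 10.67 in the wild-type hearts and 11.09, 11.18 and 11.22 in the 2lox/2lox hearts. The 2lox/2lox hearts were above 4 of the 5 wild-type hearts and below wild-type heart 4. The mean was 10.73 ± 0.42 (SD, n = 5) against 11.16 ± 0.07 (SD, n = 3), a 1.35-fold difference (log2 0.43, SE 0.20, 95% interval -0.01 to 0.87, adjusted p = 0.466).

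Wild-type heart 4 was singled out by its values for these same members, Acta1 among them. Leaving it out therefore had to raise the Acta1 estimate and end the overlap. Without this heart the Acta1 difference was 0.59 (SE 0.12), and the adjusted p was 0.259. In that comparison 3 members, Acta1, Casq1 and Mybpc1, were above the range of the remaining 4 wild-type hearts (against 4.57% of all probe sets), and the same 3 were the members with an unadjusted p under 0.05 (9.68%, against 9.57% of all probe sets). None passed the adjusted threshold, where 0.051% of all probe sets did. The estimate was then positive for 20 members and negative for 11, a shift expected from leaving out a heart that was high for many members. The heart was not picked on the whole array, so the shares of all probe sets are not a like comparison here. Atp2a1, which had an unadjusted p under 0.05 over the 8 hearts, did not without this heart (-0.14).

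Myoz1, a Z-disc protein that binds calcineurin and is the fast-fibre relative of the cardiac Myoz2, read 7.28, 7.24, 7.27, 7.45 and 7.18 in the wild-type hearts and 7.18, 7.09 and 7.19 in the 2lox/2lox hearts. The 2lox/2lox hearts were near or below the lower end of the wild-type range, and the difference was -0.13 (SE 0.07, 95% interval -0.28 to 0.03, adjusted p = 0.552). A second probe set of the gene, under the limit at a mean of 3.94, gave 0.08. Actn3, the alpha-actinin of fast fibres, read 5.44, 5.59, 5.59, 5.95 and 5.24 in the wild-type hearts and 5.75, 5.22 and 5.92 in the 2lox/2lox hearts. Both genotypes spread over much the same range, and the difference was 0.07 (SE 0.18, adjusted p = 0.936), or 0.17 without wild-type heart 4. Neb, whose product runs along the thin filament, and Myot, another Z-disc protein, had means of 3.62 and 3.92, well under the limit, with differences of -0.10 and -0.01.

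**Figure D2:**
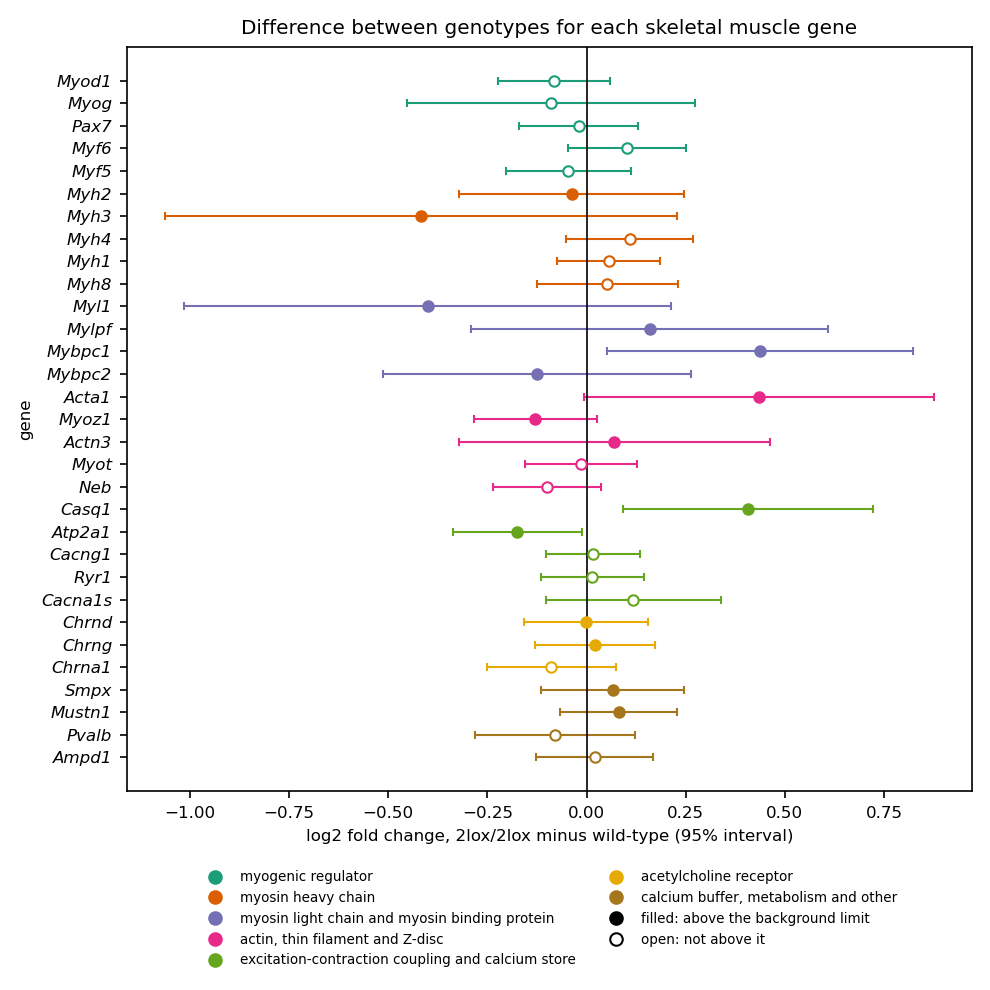
Difference in log2 level, 2lox/2lox minus wild-type (horizontal axis), with its 95% interval for each of the 31 genes, coloured by role; filled points are genes above the background limit. The intervals of Mybpc1, Casq1 and Atp2a1 leave out 0 before adjustment, Myh3 and Myl1 have the widest intervals, and the 16 open points lie between -0.10 and 0.12.

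Among the genes that couple the membrane signal to calcium release, Casq1 and Atp2a1 were above the limit. Casq1, the skeletal calsequestrin that holds calcium inside the sarcoplasmic reticulum, read 10.59, 10.79, 10.19, 10.84 and 10.55 in the wild-type hearts and 10.99, 11.19 and 10.81 in the 2lox/2lox hearts. The lowest 2lox/2lox heart lay just under wild-type heart 4 and above the other 4 wild-type hearts. The mean was 10.59 ± 0.26 (SD, n = 5) against 11.00 ± 0.19 (SD, n = 3). This is a 1.33-fold difference (log2 0.41, SE 0.14, 95% interval 0.09 to 0.72, adjusted p = 0.342), and it was 0.47 without wild-type heart 4.

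Atp2a1, the calcium pump of fast skeletal fibres (SERCA1), read 5.23, 5.28, 5.32, 5.45 and 5.25 in the wild-type hearts and 5.02, 5.25 and 5.12 in the 2lox/2lox hearts. The groups overlapped through 2lox/2lox heart 2, and the difference was -0.17 (SE 0.07, 95% interval -0.34 to -0.01, adjusted p = 0.427). Ryr1, the calcium release channel, and Cacna1s and Cacng1, subunits of the voltage sensor that opens it, had means of 4.57, 4.46 and 4.69. These are under the limit, and the differences were 0.01, 0.12 and 0.02.

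The muscle acetylcholine receptor receives the motor nerve's signal, and Chrng encodes the subunit of its fetal form. Chrnd, the delta subunit, read 5.96, 6.12, 6.06, 6.17 and 5.91 in the wild-type hearts and 6.01, 6.06 and 6.05 in the 2lox/2lox hearts. Chrng read 5.07, 5.02, 5.03, 5.07 and 5.03 in the wild-type hearts and 4.90, 5.11 and 5.18 in the 2lox/2lox hearts, and its other 2 probe sets were under the limit. The differences were 0.00 for Chrnd (95% interval -0.16 to 0.16) and 0.02 for Chrng (-0.13 to 0.17), while Chrna1, the subunit that binds acetylcholine, was under the limit at 4.56 with a difference of -0.09.

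Smpx, a small protein of the cytoskeleton made in both heart and skeletal muscle, read 12.75, 12.62, 12.88, 12.62 and 12.88 in the wild-type hearts and 12.72, 12.88 and 12.84 in the 2lox/2lox hearts. All 8 hearts lay close together, and the difference was 0.07 (SE 0.08, 95% interval -0.11 to 0.25, adjusted p = 0.837). Mustn1, a nuclear protein of muscle and skeletal tissue, read 4.94, 4.73, 4.92, 4.81 and 4.80 in the wild-type hearts and 4.87, 4.92 and 4.98 in the 2lox/2lox hearts. It cannot be told firmly from background, and the difference was 0.08 (SE 0.07). Pvalb, the calcium buffer of fast fibres, and Ampd1, the skeletal AMP deaminase, were under the limit at 4.57 and 4.27, with differences of -0.08 and 0.02.

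The 5 myogenic regulators were all under the limit. The mean levels were 4.54 for Myod1, 4.51 for Myog, 4.08 for Pax7, 3.98 for Myf6 and 3.46 for Myf5. Their differences ran from -0.09 (Myog, or 0.03 without wild-type heart 4) to 0.10 (Myf6), with -0.08 for Myod1, -0.05 for Myf5 and -0.02 for Pax7. Myog was the regulator that varied most among wild-type hearts: it read 4.48, 4.43, 4.30, 5.02 and 4.46 there and 4.60, 4.13 and 4.62 in the 2lox/2lox hearts, so that wild-type heart 4 alone was over the limit. Across the 16 members under the limit, the differences ran from -0.10 to 0.12. Near background a fold change on this scale comes out too small.

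Wild-type heart 4, picked by its values for these same members, was compared with the mean of the other 4 wild-type hearts. The share of all genes and the ranks given here are therefore not a like comparison. Wild-type heart 4 was over 0.5 higher on the log2 scale for 5 members, where this held for 0.643% of all genes (117 of 18194). No other wild-type heart was over 0.5 higher than its fellows for any member. The 5 are the genes whose sequences are given above. Myl1 was 1.15 higher (rank 17 from the top of 18194 genes) and Myh3 was also 1.15 higher (rank 18). Acta1 was 0.79 higher (rank 41), Mylpf 0.73 (rank 51) and Myog 0.60 (rank 80). They encode 2 light chains, a heavy chain, an actin and a myogenic factor, and Actn3 followed at 0.49. In contrast, wild-type heart 3 was over 0.5 lower than its fellows for Acta1, Casq1, Mybpc1 and Myl1, heart 5 for Myh3 and Mylpf, and heart 2 for Myh3.

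**Figure D3:**
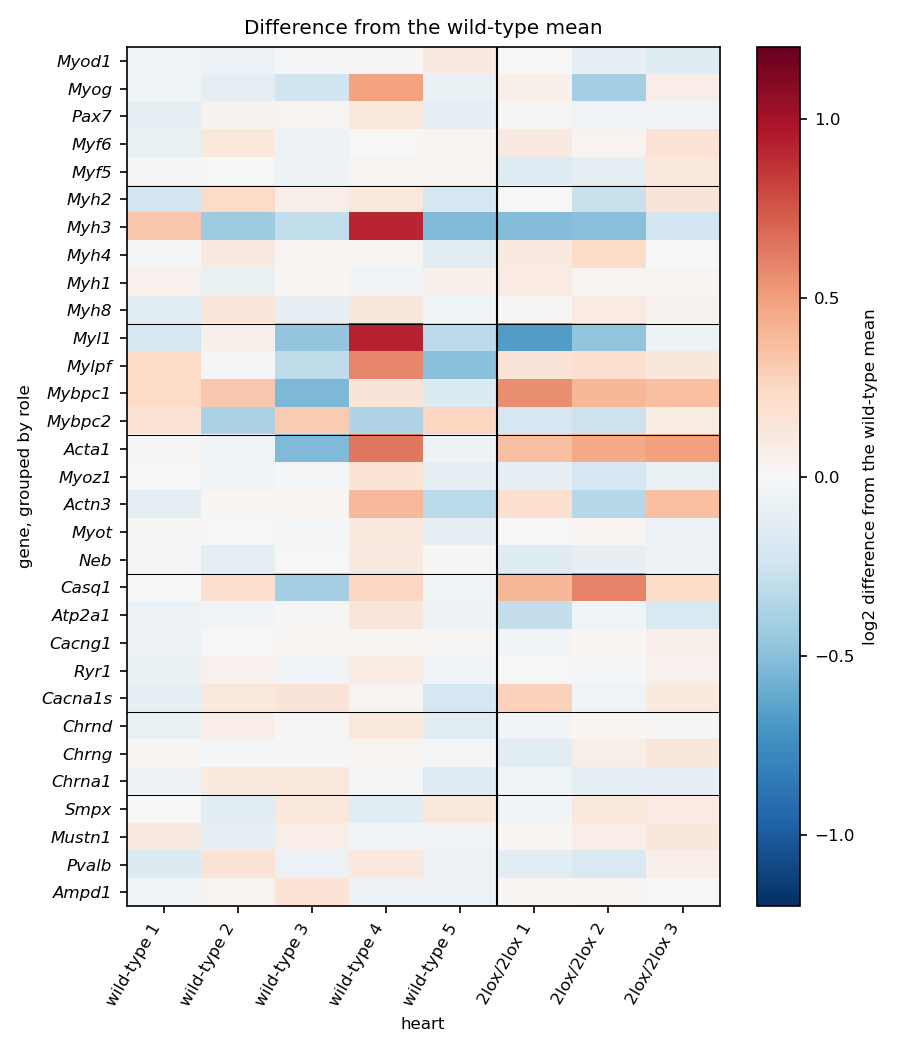
Difference of each of the 8 hearts (columns) from the wild-type mean for the 31 genes (rows, grouped by role), on the log2 scale with red for higher and blue for lower. Wild-type heart 4 is red for Myog, Myh3, Myl1, Mylpf and Acta1, and the 2lox/2lox hearts are red for Mybpc1, Acta1 and Casq1.

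The same heart stood apart for cardiac genes, mostly in the other direction. Of 16 cardiac counterparts of the members, it had the lowest level of all hearts for 12 and the highest for the other 4, where it was lowest for 14.4% and highest for 13.9% of all genes. Casq2, the cardiac calsequestrin, read 10.06 in it and 11.00 to 11.60 elsewhere. Its Myh7 (14.12) and Myl2 (14.28), the beta heavy chain and the ventricular light chain, were the lowest of the 8 hearts. Those highest in it were Myl4 and Myl7, which encode atrial light chains, Myh6 and Nebl. Among 40 other skeletal muscle genes it was highest for 5 (12.5%) and lowest for 14, with Ckm, the muscle creatine kinase, at 9.64 against 10.35 to 12.03 elsewhere. The mean of 8 brown fat markers was also lowest in it, 6.0 against 6.33 to 6.72. Of the 8, 5 were above the limit (Fabp4, Ppargc1a, Prdm16, Cidea and Pparg). Ucp1, the defining gene, Elovl3 and Adipoq were under it throughout. The part of any of these in the level of the skeletal genes was not tested.

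**Figure D4:**
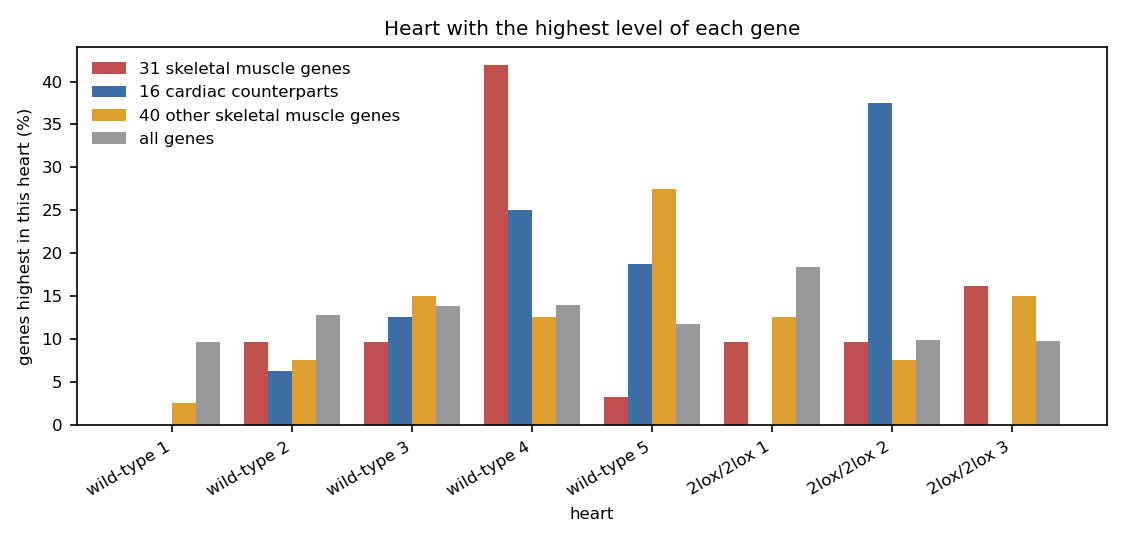
Share of genes (vertical axis, percent) whose highest level among the 8 hearts (horizontal axis) fell in each heart, for the 31 skeletal muscle genes, 16 cardiac counterparts, 40 other skeletal muscle genes and all 18194 genes. Wild-type heart 4 has 41.9% of the skeletal muscle genes against 13.9% of all genes, and 12.5% of the other skeletal muscle genes. This heart was picked by its values for the 31 genes, so its share of all genes is not a like comparison.

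Some members varied more among the wild-type hearts than most genes do. For 9 of 31 (29.0%) the SD over the 5 wild-type hearts exceeded the 95th percentile of all genes, which by definition 5% of all genes exceed. These were Acta1, Actn3, Casq1, Mybpc1, Mybpc2, Myh3, Myl1, Mylpf and Myog. Without wild-type heart 4 there were 6 (19.4%), and in the 2lox/2lox hearts there were 3 (9.68%), Actn3, Myl1 and Myog. The typical member was not variable, since the median SD over the wild-type hearts was 0.11 for the members and 0.10 for all genes. A wide spread was not particular to the members. The median SD was 0.15 for the 40 other skeletal muscle genes and 0.13 for the 16 cardiac counterparts. Ckm among the former, Casq2, Ampd3 and Myoz2 among the latter, and the troponin Tnnt1 also exceeded the 95th percentile. The spread of each member sets the width of its interval given above.

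Markers of other cell types that a dissected heart could hold were read on the same arrays. The mean of 8 lung epithelium markers was 4.69 to 4.89 in the wild-type and 4.70 to 4.89 in the 2lox/2lox hearts. Of the 8, 3 were above the limit (Sftpb, Sftpc and Ager), with Scgb1a1 and Nkx2-1 among those below it. For 8 thymocyte markers it was 4.56 to 4.69 and 4.59 to 4.71, with 3 above (Cd3e, Rag2 and Cd8a) and Rag1, Dntt and Ptcra below. For 7 epithelial markers of the esophagus and trachea it was 4.59 to 4.70 and 4.64 to 4.68. Of these, 3 were above (Krt5, Trp63 and Epcam), with Krt13, Krt4 and Cdh1 below. In each of these 3 lists wild-type heart 4 lay inside the range of the other hearts, and no list had a member past the adjusted threshold.

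For 7 cartilage and bone markers the mean was 5.64 to 6.20 in the wild-type and 5.94 to 6.09 in the 2lox/2lox hearts, with wild-type heart 4 at 6.07. Of the 7, 5 were above the limit, Col2a1 and Sox9 among them. For 6 smooth muscle markers, of which 5 were above the limit, it was 8.76 to 9.05 and 8.85 to 9.10. The mean of the 13 cardiomyocyte markers was 12.26 to 12.32 and 12.29 to 12.36, lowest in wild-type heart 4. No marker of these lists passed the adjusted threshold. At an unadjusted p under 0.05 in limma, 2 of 13 cardiomyocyte markers were higher in the 2lox/2lox hearts, Gata4 (0.36) and Nkx2-5 (0.27), and 1 was lower, Nppa (-0.27). Of 6 smooth muscle markers 2 were higher, Cnn1 (0.27) and Smtn (0.31). Of 8 lung markers 1 was, Sftpd (0.17), which was under the limit at a mean of 4.48. The other marker lists had 0, and 10.9% of all probe sets reached this p. The largest smooth muscle difference was that of Tagln, -0.41 (unadjusted p = 0.0679 in limma). The smooth muscle differences were positive for 4 markers and negative for 2. Those of the lung markers were positive for 2 and negative for 6.

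RNA breakdown lowers the 5′ signal of a transcript against its 3′ signal, and the 3′ minus 5′ difference over the Actb and Gapdh controls was 0.32 to 0.38 in the wild-type hearts and 0.52, 0.50 and 0.33 in 2lox/2lox hearts 1 to 3. It was thus higher in 2 of the 3 2lox/2lox hearts. With it as a covariate the differences were 0.63 for Acta1, 0.36 for Casq1 and 0.48 for Mybpc1, none of which passed, while that of Myl1 became 0.04.

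The cardiac forms that pair with the members in each role gave no call either. Of 16 counterparts, none passed the adjusted threshold (0.0798% of all probe sets did), and the median difference was 0.04. At an unadjusted p under 0.05 there were 2 of 16 (12.5%, against 10.9% of all probe sets), both higher, Mybpc3 (0.21, adjusted p = 0.336) and Actn2 (0.23, adjusted p = 0.367, or 0.18 without wild-type heart 4), the cardiac relatives of Mybpc1 and Actn3. Beside Acta1, the cardiac alpha-actin Actc1 differed by -0.02, and beside Casq1, Casq2 differed by 0.39 (SE 0.29, adjusted p = 0.694), or by 0.15 without wild-type heart 4. Atp2a2, Ryr2 and Cacna1c, beside Atp2a1, Ryr1 and Cacna1s, differed by 0.03, 0.14 and 0.19, with Cacna1c at 0.10 without that heart. Beside the skeletal heavy and light chains, the differences were 0.05 for Myh6, 0.05 for Myh7, 0.01 for Myl2, 0.02 for Myl3, -0.01 for Myl4 and 0.00 for Myl7, and without that heart they were 0.11 for Myh6 and 0.09 for Myl7. Those of Myoz2, Nebl and Ampd3 were 0.02, -0.05 and 0.12, and without that heart Myoz2 and Ampd3 turned to -0.09 and -0.02. Myl2, Myl3 and Myl4, all within 0.03 of 0, changed sign as well.

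Where the troponins cross this list, 1 of 5 skeletal forms passed. Tnni2, the fast skeletal inhibitory subunit, read 9.19, 9.01, 8.86, 9.38 and 8.76 in the wild-type hearts and 10.75, 10.32 and 10.03 in the 2lox/2lox hearts, a difference of 1.32 (SE 0.17, adjusted p = 0.0240). This call held without wild-type heart 4 (1.41, adjusted p = 0.0211) and was lost with the 3′ minus 5′ covariate and without wild-type heart 1, 2 or 3 or 2lox/2lox heart 1 or 2. The slow forms Tnni1 and Tnnt1 differed by -0.01 and 0.17, and the fast forms Tnnt3 and Tnnc2, which lie near the limit, by 0.14 and -0.11. Without wild-type heart 4 the differences were 0.08 for Tnnt1, 0.22 for Tnnt3 and -0.04 for Tnnc2. None of the 31 members, the fast fibre genes Myl1, Mylpf, Actn3, Atp2a1 and Casq1 included, passed with Tnni2. Whether the change in Tnni2 differs from theirs was not tested.

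Of 42 further skeletal muscle genes, 40 had a probe set of their own and 30 were above the limit. None passed the adjusted threshold, and the median difference was 0.03. At an unadjusted p under 0.05 there were 4 (10%, against 10.9% of all probe sets). Des, the intermediate filament of all striated muscle, was 0.36 higher (adjusted p = 0.186), with the groups apart. Xirp1, an actin-binding protein of the intercalated disc, was 0.43 higher (adjusted p = 0.306; 0.35 without wild-type heart 4), Ckm was 1.14 higher (SE 0.40, adjusted p = 0.349; 0.86 without wild-type heart 4), and Six4, a regulator of myogenic precursors, differed by -0.19 (adjusted p = 0.418).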

How the data were processed

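The labels placed 5 hearts in the wild-type and 3 in the 2lox/2lox group. The authors deposited log2 expression levels of 45101 probe sets, already summarized and normalized by a method not given in the sources used here. Only limma, with no version, is named in the submitters' processing notes. Array medians lay between 5.03 and 5.10, and the values were used as deposited. Another treatment of background would change the dim genes most. Arrays have no read depth, and their number limits the precision.

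After the methods of the study, the 2lox/2lox hearts were compared with the wild-type hearts by limma 3.58.1 in R 4.3.3 (two-sided, lmFit then eBayes), and p-values were adjusted over the whole array by Benjamini-Hochberg, with a threshold of 0.05. The fit was tested on simulated data. Probe sets were named from the platform annotation with RefSeq's current symbols (1 gene for 34958 probe sets, several for 932, none for 9211), and each gene was read from the brightest probe set annotated to it alone. Promoter sequences are RefSeq's, build GRCm38.p6.

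The members and all gene lists were chosen with earlier results of these data known. By rule, every member is named, with each heart's value where it lay above the background limit, as are all cardiac counterparts and skeletal troponins, and up to 4 genes of each other list, those with the smallest p. Genes named for wild-type heart 4, for their spread or as markers above or below the limit were chosen after their values were seen. Alternatives were trend or robust moderation, quantile or median scaling, a filter on dim probe sets, array weights, a replicate block, a sex score, the 3′ minus 5′ difference, a fold of 1.4, other background limits, any probe set of a gene, and each heart left out. Those on the count of members highest in wild-type heart 4 were chosen after seeing the data.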

Additional observations from a re-analysis of the deposited data

Results flagged for a closer look

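Among the 5 wild-type hearts, 52 genes (31 members, 16 cardiac counterparts and 5 skeletal troponins) were examined for a single heart far from the others, by Dixon's test at the 95% level (a gap over 0.71 of the range), which chance alone passes in about 1 of 20 genes. It marked 3 of the 52 genes, 1 of them among the 31 members, which is near the share that chance gives. All 3 marks were in wild-type heart 4. Myog was 5.02 there, with the nearest wild-type heart at 4.48. Myh7 was 14.12 with the nearest at 14.32, and Myl2 was 14.28 with the nearest at 14.41.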

How the results depend on the processing

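No member and no cardiac counterpart passed the adjusted threshold under any alternative or with any heart left out. Over other settings the smallest adjusted p of a member was 0.294, and with a heart left out it was 0.155. Of 248 estimates of member differences under other settings, 246 kept their direction and side of the threshold, as did all 248 with a heart left out, a sign change being counted only where a value was over 1 SE from 0. The 2 exceptions came with the 3′ minus 5′ covariate, under which Myf5 went from -0.05 to 0.11 and Myl1 from -0.40 to 0.038, and the cause was not tested. The count of skeletal troponins that passed went from 1 (Tnni2) to 0 with the replicate block and to 0 with the 3′ minus 5′ covariate, and was 0 to 1 with each heart left out (0 without wild-type heart 1, 2 or 3 or 2lox/2lox heart 1 or 2). The count of other skeletal muscle genes was 0 to 1 with each heart left out (1, Des, without 2lox/2lox heart 3), where the calls over the whole array went from 36 to 797. Whether hearts with the same replicate number were pairs is not known. Their deviations from the group means correlated at 0.01, -0.08 and -0.05 over all probe sets. This cannot decide it, since littermates need not share such deviations. The replicate block left 0 of 45101 probe sets, and 0 members, past the threshold. With the 3′ minus 5′ covariate 9 probe sets passed. Members above background were 24 with the lower quartile of all probe sets as the limit and 5 with the brightest receptor gene, against 15, and 11 to 15 under the other limits, scaling and hearts left out. Members highest in wild-type heart 4 were 13 after either scaling, 15 of 42 over all member probe sets, and 17 among wild-type hearts alone. The number of arrays and the dim signal of 16 members limit what can be seen.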
